A study of Mus musculus with 8 samples.

Results

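The genes described here encode the subunits of glutamate receptors and of GABA-A receptors, the proteins on which neurons receive most excitatory and inhibitory signals in the brain. They were chosen by name alone from a table of long-read counts, as the genes whose symbol starts with Gria, Grin1 to Grin3, Grik or Grm and a number, or with Gabr and the letter of a GABA-A subunit class. Gabra6, a gene of cerebellar granule cells, was left out. This rule gave 42 of the 22430 genes in the table.

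The study compared young adult (6m) with aged (24m) male mice of the inbred strain C57Bl/6JRj, 4 of each age, and took RNA from a whole hemisphere of the brain. The labels name no engineered allele and no treatment, so the groups differ by age alone as far as the labels say. Each mouse gave 1 library. RNA molecules were read directly by nanopore (ONT) sequencing, without amplification, and the values used are the raw numbers of reads on each gene, as deposited. A hemisphere mixes many regions and cell types, so fewer cells of a type and less RNA per cell cannot be told apart in these values.

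Glutamate receptors fall into 2 groups of families. Ionotropic receptors are ion channels built of 4 subunits and are named AMPA (Gria genes), NMDA (Grin genes) and kainate (Grik genes) receptors after their agonists, whereas metabotropic receptors (Grm genes) act through G proteins. AMPA receptors carry most of the fast excitatory current, and NMDA receptors, which need the obligatory subunit of Grin1, let calcium in when the cell is already depolarized. GABA-A receptors are chloride channels built of 5 subunits, most often of alpha, beta and gamma classes, and several of their genes lie side by side in clusters on the chromosomes.

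Library totals ran from 573152 to 1255424 counts on genes. Levels are given as CPM, which are counts scaled to a common library size with edgeR's TMM factors. Where no read was counted, as many as 3 could have been missed by counting error alone, which is 2.30 CPM in the deepest library and 5.42 CPM in the shallowest. The 42 genes held 8502 counts in all, or 0.128% of all counts, so depth is the main limit on what follows. The aged library of replicate 1 stood apart from the other aged libraries, at a chi-square of 2.80 to 3.92 per degree of freedom over genes, where the other 3 aged libraries differed from each other by 1.29 to 1.90. The 8 libraries were counted as separate mice.

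Summed over families, the levels of the receptor genes overlapped between the ages. All 42 genes together summed to 1275 ± 29.1 CPM at 6m and 1277 ± 36.1 CPM at 24m (mean ± SD, n = 4 per age, as for all values below). The 16 ionotropic glutamate receptor genes summed to 842.7 ± 26.7 CPM at 6m and 861.1 ± 35.1 CPM at 24m, and the 18 GABA-A genes to 295.9 ± 17.95 and 296.8 ± 22.8 CPM. In every one of these sums the libraries of both ages overlapped. The ratio of the ionotropic glutamate sum to the GABA-A sum within a library was 2.85 ± 0.105 at 6m and 2.92 ± 0.337 at 24m, also with overlap. No test was run on sums, since their members were chosen for this description.

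The single families of glutamate receptors also overlapped. The AMPA sum was 111.3 ± 27.5 CPM at 6m and 100.9 ± 9.55 CPM at 24m. The NMDA sum was 512.6 ± 32.6 and 530.8 ± 43.8 CPM, and the kainate sum 218.8 ± 16.7 and 229.3 ± 13.5 CPM. The metabotropic sum was 136.6 ± 14.2 CPM at 6m and 119.4 ± 21.6 CPM at 24m.

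The GABA-A genes were summed by subunit class. The alpha sum was 76.3 ± 7.89 CPM at 6m and 97.1 ± 20.9 CPM at 24m. Its overlap came from 1 library, since aged replicate 1 held 68.6 CPM while the other aged libraries lay between 94.7 and 115.1 CPM, above all young adult libraries, which lay between 69.1 and 84.98 CPM. The beta sum was 18.4 ± 3.55 and 15.5 ± 5.71 CPM, the gamma sum 45.7 ± 10.4 and 48.1 ± 12.9 CPM, and the sum of the delta, epsilon, pi, theta and rho genes 155.6 ± 20.3 and 136.0 ± 20.1 CPM.

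**Figure D1:**
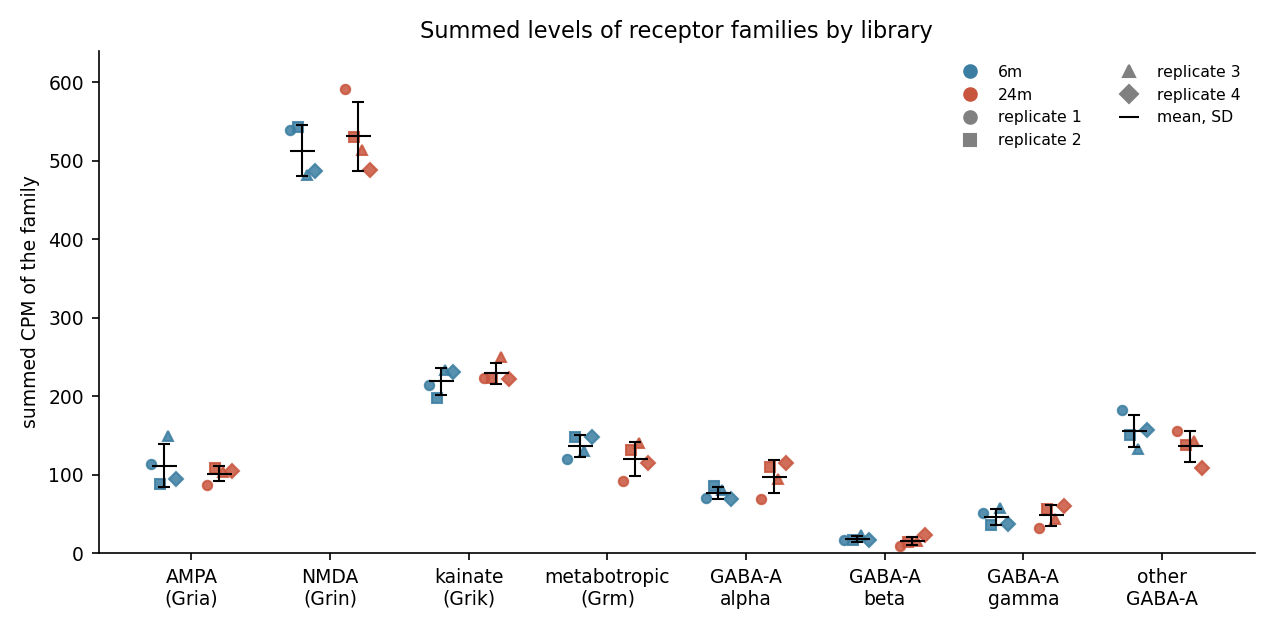
Summed level of each receptor family in CPM (vertical axis) in every library, by age (colour) and replicate (symbol), with the mean and SD of 4 libraries. The ages overlap in all 8 families, and the NMDA family has the highest sums, between 481.7 and 591.4 CPM.

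A few genes made up most of these sums. The 5 genes with the most counts were Grin1, Grik5, Grin3b, Gabrd and Grin2c, which held 5451 counts, or 64.1% of the counts of all 42 genes. The level of Grin3b is uncertain, since it shares 1059 exon bases with Tmem259 on the opposite strand, as described below. Scaled by the length of the canonical transcript, Gabrd, which encodes the delta subunit of receptors outside the synapse, stood at 78.1 ± 10.6 CPM per kb at 6m and 67.1 ± 9.05 CPM per kb at 24m. Grin1 stood at 53.7 ± 5.92 and 71.3 ± 6.07 CPM per kb. On this scale Gabrd led at 6m, where its libraries lay above those of Grin1. At 24m Grin1 had the higher mean, and the libraries of both genes overlapped. Without scaling by length, Grin1 lay above Gabrd in all libraries at both ages, at 231.7 ± 25.6 against 151.1 ± 20.5 CPM at 6m. Grin3b stood at 52.2 ± 4.41 and 35.1 ± 6.50 CPM per kb and Grik5 at 38.5 ± 3.96 and 41.6 ± 3.11 CPM per kb. On this scale Grin3b was above Grik5 in all libraries at 6m, with overlapping values at 24m. Without scaling by length, Grin3b stood at 171.3 ± 14.5 CPM and Grik5 at 183 ± 18.8 CPM at 6m, with overlap. At 24m Grik5 was then higher in all libraries. Both orders thus depend on the scaling by length. Where molecules are read directly, counts need no scaling by length, so the order without scaling suits these counts better. Grin2c followed at 15.2 ± 1.59 and 14.8 ± 3.29 CPM per kb, then Gria1 at 9.01 ± 1.92 and 10.6 ± 0.337 CPM per kb.

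These 5 genes also had short 3′ untranslated regions and GC-rich transcripts. Their annotated 3′ untranslated regions had a median of 424 bases and ran from 89 to 1241 bases, against a median of 2128 bases in the 18 other genes that passed the filter on low counts and of 2978 bases in the 19 genes under it. The median GC content of their transcripts was 61.8%, against 45.2% and 45.8% in the other genes. The minimum of 89 bases belongs to Grin3b, which has a GC content of 63.4% and whose counts are uncertain. Over all 42 genes the rank correlation (Spearman ρ) of total count with the length of the 3′ untranslated region was -0.29 and with GC content 0.29, which are weak values over genes of shared families and are given as a description. Over the 16423 protein-coding genes with a count, the same correlations were -0.08 with the length of the 3′ untranslated region and 0.24 with GC content.

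Of the 42 genes, 23 passed the filter of a mean count over 5 and were tested between the ages. The test was edgeR's quasi-likelihood test on all 9375 genes over that filter, with p-values adjusted after Benjamini and Hochberg over all of them. A gene is called changed where its adjusted p was 0.05 or less and its log2FC (log2 of 24m over 6m) was 0.58 or more in size. Of the receptor genes 1 rose, Gabra3, and 1 fell, Gria2. Each is 4.35% of the 23 tested receptor genes, beside 10.3% of all tested genes that rose and 4.17% that fell. Grin1 and Grin3b passed the adjusted p but not the minimum log2FC. The libraries of the ages did not overlap for 1 receptor gene that was higher, Grin1, and 2 that were lower, Gria2 and Grin3b, beside 11.1% of all tested genes higher and 9.96% lower without overlap.

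In the 23 tested genes, log2FC was above 0 in 12 and below 0 in 11, with a median of 0.03, beside a median of -0.003 over all tested genes. Their standard errors (SE) ran from 0.107 to 0.501 with a median of 0.268, the larger errors belonging to genes with few counts. The 19 genes under the filter passed no test in either direction because none was made.

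**Figure D2:**
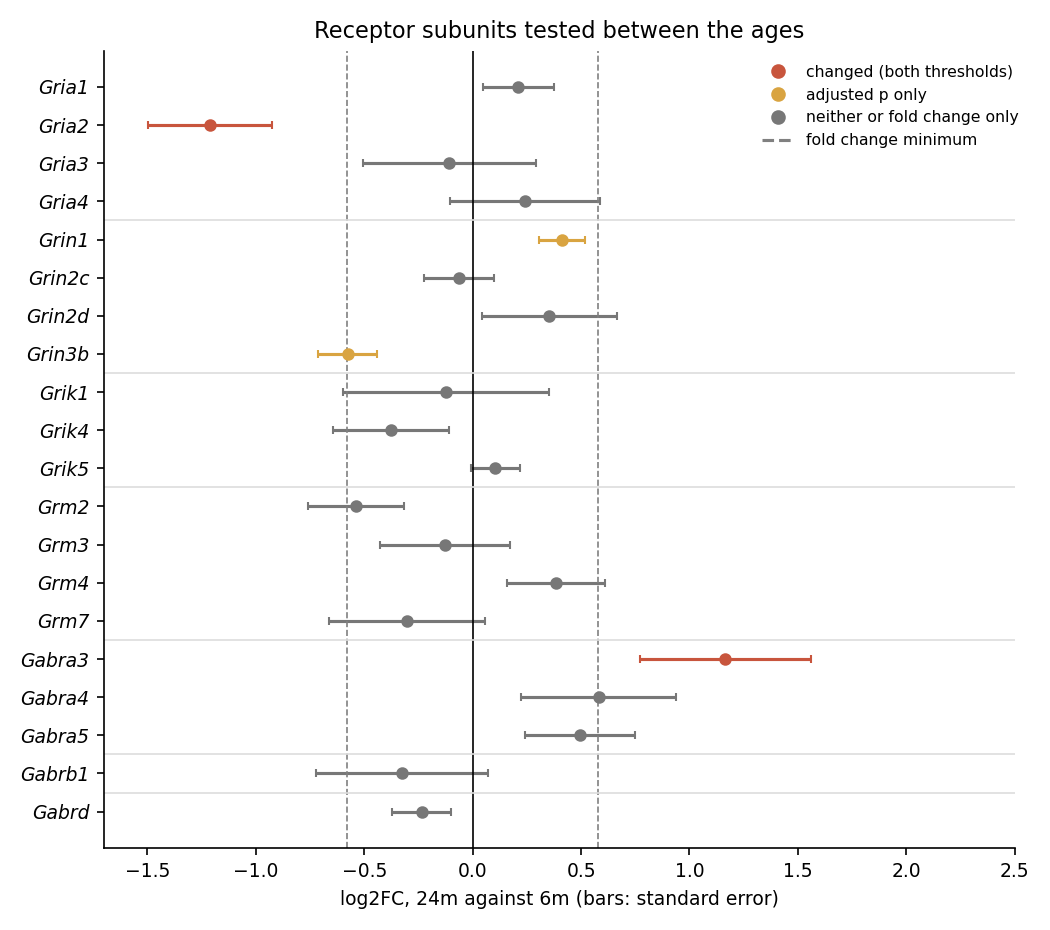
log2FC of 20 tested receptor genes (horizontal axis, 24m against 6m) with standard errors as bars, coloured by whether the gene passed both thresholds, the adjusted p alone or neither. Gria2 at -1.21 and Gabra3 at 1.17 lie beyond the minimum of 0.58 and pass the adjusted p.

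The receptor gene that fell by both thresholds is an AMPA receptor gene. Gria2 encodes GluA2, the subunit that keeps AMPA receptors from passing calcium. Its counts were 21, 15, 48 and 26 in the young adult libraries and 6, 20, 13 and 20 in the aged libraries, or 25.9, 27.1, 59.7 and 32.7 CPM at 6m and 9.15, 20.8, 16.6 and 15.3 CPM at 24m. All aged libraries lay under all young adult libraries. In the annotation, 635 exon bases of Gria2 lie opposite the long non-coding RNA Gm66511, which is not in the count table. Whether its reads enter these counts was not tested. Mean Gria2 was 36.3 ± 15.9 CPM at 6m and 15.5 ± 4.82 CPM at 24m, a log2FC of -1.21 with an SE of 0.286 (edgeR adjusted p = 0.00372). The call held under all 19 alternative settings, with log2FC from -1.37 to -0.84 and adjusted p from 8.77e-05 to 0.0477. These settings include each library left out in turn. They also include the same fit judged by the adjusted p alone, which could not lose the call.

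The other AMPA receptor genes did not pass the test. Gria1, which encodes GluA1, a subunit that is added to synapses during potentiation, stood at 62.8, 39.8, 62.2 and 47.7 CPM at 6m and at 65.5, 61.3, 61.4 and 62.1 CPM at 24m, with a log2FC of 0.21 (SE 0.165). Gria3 lay between 3.62 and 12.3 CPM at 6m and between 6.10 and 9.36 CPM at 24m, with a log2FC of -0.11 (SE 0.398). Gria4, the subunit known from cerebellum and interneurons, had a log2FC of 0.24 (SE 0.345). With errors of this size, a change near the minimum log2FC was not detectable for Gria3 or Gria4.

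Because scaling cancels within a library, the ratio of Gria1 to Gria2 counts was also taken. It was 2.43, 1.47, 1.04 and 1.46 in the young adult libraries and 7.17, 2.95, 3.69 and 4.05 in the aged libraries. Every aged library lay above every young adult library, with means of 1.60 ± 0.587 at 6m and 4.47 ± 1.86 at 24m. The highest value belongs to aged replicate 1, in which Gria2 had 6 counts. The ratio of Gria3 to Gria2 was 0.247 ± 0.155 at 6m and 0.532 ± 0.1 at 24m, with overlap between the ages. Both ratios share the counts of Gria2 and are no separate evidence for its decrease.

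What sets GluA2 apart in the pore is RNA editing at 1 codon, the Q/R site. There the RNA of Gria2 is known to be edited from adenosine to inosine, so that arginine replaces the encoded glutamine. The genome encodes glutamine at this place in all 4 AMPA receptor genes. The stretches of 27 bases around it are shown to let the codon be compared, 5′ to 3′ on the strand of the gene, with the codon in capitals, read from the GRCm39 genome through GENCODE transcripts.
Gria1: ggggccttcatgCAGcaaggatgtgac
Gria2: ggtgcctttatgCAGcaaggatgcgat
Gria3: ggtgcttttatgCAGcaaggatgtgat
Gria4: ggtgcctttatgCAAcaaggatgtgac

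All are coding exon sequence. The Gria1 stretch lies at chr11:57133908-57133934 on the plus strand in exon 11 of 15, and that of Gria2 at chr3:80614206-80614232 on the minus strand in exon 11 of 16. The Gria3 stretch lies at chrX:40699130-40699156 on the plus strand in exon 11 of 14, and that of Gria4 at chr9:4464125-4464151 on the minus strand in exon 12 of 17. Over the 27 bases Gria2 differs from Gria3 at 2 positions, from Gria4 at 3 and from Gria1 at 4, and the codon is CAA in Gria4 and CAG in the others. Gene counts hold no base calls, so editing of Gria2 RNA is not measured by these values.

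**Figure D3:**
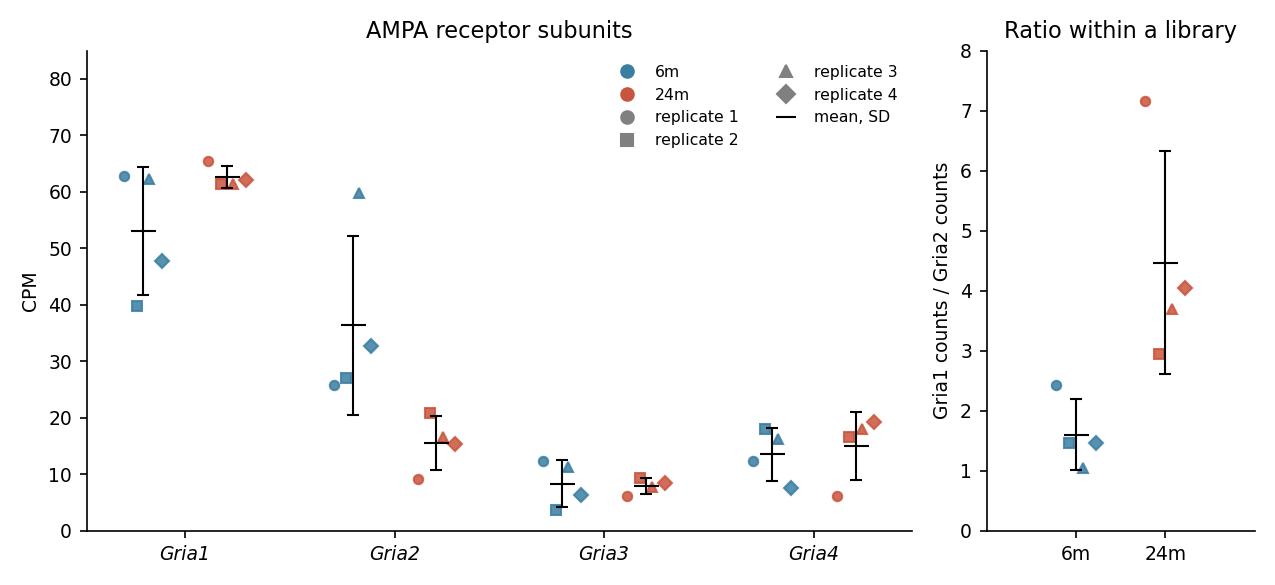
Left, CPM of the 4 AMPA receptor genes in every library by age (colour) and replicate (symbol), with mean and SD. Right, ratio of Gria1 to Gria2 counts within each library, which is between 1.04 and 2.43 at 6m and between 2.95 and 7.17 at 24m.

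In the NMDA receptor family the genes of the obligatory subunit and of an accessory subunit passed the adjusted p in opposite directions, both short of the minimum log2FC. Grin1, which encodes GluN1, had 192, 146, 163 and 178 counts at 6m and 209, 315, 247 and 351 counts at 24m. On the CPM scale these were 236.3, 264.0, 202.9 and 223.5 at 6m and 318.6, 327.5, 316.1 and 269.2 at 24m, so all aged libraries lay above all young adult libraries. The log2FC of Grin1 was 0.41 with an SE of 0.107 (edgeR adjusted p = 0.00727), which passed the adjusted p but not the minimum log2FC. Over the alternatives it stayed between 0.36 and 0.52, with adjusted p from 0.00104 to 0.0407. In the annotation, 1307 exon bases of Grin1 lie opposite the long non-coding RNA Grin1os, which is not in the count table, and whether the counting used strand is not given in the sources used here.

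Grin3b, which encodes GluN3B, a glycine-binding subunit best known from motor neurons, stood at 192.0, 168.2, 166.8 and 158.2 CPM at 6m and at 138.7, 93.6, 101.1 and 127.3 CPM at 24m. All aged libraries were lower. Its log2FC was -0.58 with an SE of 0.134 (edgeR adjusted p = 0.00332), just inside the minimum of 0.58 before rounding and therefore not called. Leaving out young adult replicate 3 or 4 or aged replicate 1 or 4 put it past the minimum, at -0.58, -0.61, -0.65 and -0.63.

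The Grin3b values are uncertain. Grin3b shares 1059 exon bases with Tmem259, a gene on the opposite strand that encodes a membrane protein of the endoplasmic reticulum. It had 207, 131, 182 and 181 counts at 6m and 120, 143, 111 and 220 counts at 24m. Tmem259 stood at 254.8, 236.9, 226.5 and 227.3 CPM at 6m and at 182.9, 148.7, 142.0 and 168.7 CPM at 24m, with a log2FC of -0.56 (SE 0.112, edgeR adjusted p = 0.00096). The ratio of Grin3b to Tmem259 counts was 0.724 ± 0.0258 at 6m and 0.714 ± 0.0599 at 24m, so the counts of both genes moved together from library to library. How far reads of Tmem259 enter the counts of Grin3b was not tested. Without Grin3b, the NMDA sum had a log2 ratio of 24m to 6m of 0.28 in place of 0.05.

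**Figure D4:**
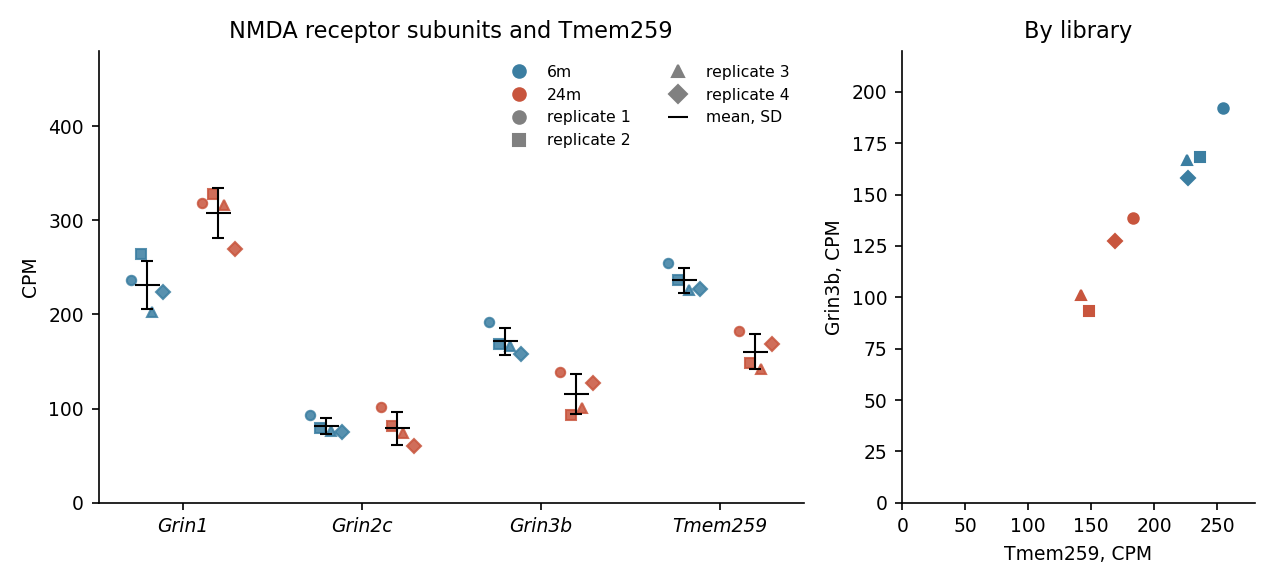
Left, CPM of Grin1, Grin2c, Grin3b and the overlapping gene Tmem259 in every library by age (colour) and replicate (symbol), with mean and SD. Right, Grin3b against Tmem259 by library, where the 4 aged libraries lie under the 4 young adult libraries on both axes.

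The GluN2 genes set the kinetics and the magnesium block of NMDA receptors. Grin2c, which encodes the GluN2C subunit of cerebellar granule cells and astrocytes, had 522 counts, a mean of 81.1 ± 8.51 CPM at 6m and 79.3 ± 17.6 CPM at 24m and a log2FC of -0.06 (SE 0.163). Grin2d lay between 6.15 and 23.7 CPM at 6m and between 14.1 and 26.1 CPM at 24m, with a log2FC of 0.35 (SE 0.310). Neither passed the test.

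The GluN2 subunits that dominate the forebrain were nearly absent from these counts. Grin2a had 27 counts over all libraries and Grin2b had 7. Grin2b had 2, 1, 2 and 2 counts at 6m and 0 in each aged library. Both ages are at or under the limit of 3 counts in every library, so no fold is given. Grin2b was called lower with a total count over 5 and with no filter, on these 7 counts, and was not tested under the filter used here. Their canonical transcripts are the longest of the family, with 14866 bases for Grin2a and 24238 bases for Grin2b, of which 9932 and 18868 bases are 3′ untranslated region. Grin3a, the other glycine-binding subunit, had 21 counts. The ratio of Grin2a to Grin2b was not taken, since both are under the filter.

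Kainate receptors act on both sides of the synapse, and the subunits of Grik4 and Grik5 bind kainate with high affinity but need a subunit of Grik1 to Grik3 to form channels. Grik5 had 1276 counts, with 176.0, 160.9, 190.4 and 204.7 CPM at 6m and 192.1, 192.3, 220.1 and 187.9 CPM at 24m. The ages overlapped, and the log2FC was 0.11 (SE 0.113), the second smallest error among the receptor genes. Of its exon bases 145 lie opposite Zfp574. Grik4 was at 22.3 ± 4.44 CPM at 6m and 17.4 ± 3.73 CPM at 24m, with a log2FC of -0.38 (SE 0.268). Grik1 was at 8.18 ± 5.42 and 7.13 ± 3.99 CPM, with a log2FC of -0.12 (SE 0.474).

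The remaining kainate receptor genes were under the filter. Grik2 had 38 counts, 15 at 6m and 23 at 24m. Grik3 had 4 counts, of which 1 was in a young adult library and 3 in aged libraries, so its level was not measurable here.

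Metabotropic glutamate receptors comprise group I (Grm5 among them), which stimulates phospholipase C, and groups II (Grm2 and Grm3) and III (Grm4, Grm6, Grm7 and Grm8), which lower cyclic AMP and are often presynaptic. Grm2 had the largest difference among the tested genes of the family. It stood at 33.2, 47.0, 48.5 and 44.0 CPM at 6m and at 19.8, 43.7, 23.0 and 28.4 CPM at 24m, so the ages overlapped through aged replicate 2. The log2FC was -0.54 (SE 0.223, edgeR adjusted p = 0.0847), which did not pass. Without aged replicate 2 it was -0.80, with an adjusted p of 0.0225.

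Grm3, the group II receptor also found on astrocytes, was at 25.2 ± 11.5 CPM at 6m and 23.2 ± 7.503 CPM at 24m, with a log2FC of -0.13 (SE 0.300). Grm4, a receptor of cerebellar granule cell terminals, stood between 24.9 and 60.3 CPM at 6m and between 36.6 and 62.7 CPM at 24m. Its log2FC was 0.38 (SE 0.226, edgeR adjusted p = 0.238). Young adult replicate 4 held the highest of the young values, and without it the log2FC of Grm4 was 0.75 with an adjusted p of 0.022. Grm7 had a log2FC of -0.30 (SE 0.359).

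The remaining genes named here were under the filter. Grm5 had 24 counts, with 5, 2, 4 and 4 at 6m and 2, 1, 4 and 2 at 24m. Grm8 had 32 counts, 21 at 6m and 11 at 24m, and Grm6, a receptor of the retina, had 1 count.

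Among the GABA-A receptor genes, the alpha subunits decide where the receptors sit and how they respond to benzodiazepines. Gabra3 was the receptor gene that rose. Its counts were 2, 5, 9 and 5 at 6m and 13, 17, 7 and 23 at 24m, or 2.46, 9.04, 11.2 and 6.28 CPM at 6m and 19.8, 17.7, 8.96 and 17.6 CPM at 24m. Aged replicate 3 lay within the range of the young adult libraries, and the other aged libraries lay above it. Mean Gabra3 was 7.25 ± 3.77 CPM at 6m and 16.0 ± 4.82 CPM at 24m, a log2FC of 1.17 with an SE of 0.396 (edgeR adjusted p = 0.0357).

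This call was not stable. The adjusted p of Gabra3 was 0.0925 with DESeq2 on raw counts and 0.157 with DESeq2 on quantile-normalized counts. It was 0.145, 0.0827, 0.0878 and 0.07 without young adult replicate 1 or 4 or aged replicate 2 or 4. The log2FC stayed above 0, from 0.87 to 1.51, over 18 alternatives, among them the same fit judged by the adjusted p alone. With edgeR's filterByExpr it had too few counts to be tested.

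The other alpha subunit genes did not pass the test. Gabra5, whose receptors lie mostly outside the synapse in the hippocampus, was at 24.0 ± 7.75 and 32.1 ± 9.22 CPM, with a log2FC of 0.50 (SE 0.255, edgeR adjusted p = 0.172). It passed both thresholds in 1 alternative, without aged replicate 1, at 0.64 with an adjusted p of 0.0489. Gabra4, a partner of the delta subunit, had a log2FC of 0.58 (SE 0.359, edgeR adjusted p = 0.264). Gabra2 had 14 counts and was under the filter.

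The beta subunits help to form the GABA binding site, and their genes held few counts. Gabrb1 was at 9.11 ± 3.14 CPM at 6m and 7.11 ± 1.71 CPM at 24m, with a log2FC of -0.32 (SE 0.396). Gabrb2 was under the filter with 13 counts, 5, 1, 3 and 2 at 6m and 1, 0, 0 and 1 at 24m. The CPM values of Gabrb2 did not overlap between the ages, at 1.81 to 6.15 at 6m and 0 to 1.52 at 24m, but all aged libraries and 3 of the young adult libraries held at most 3 counts, and it was not tested.

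The gamma subunits are needed for clustering at synapses and for the action of benzodiazepines. No gene of this class passed the test. Gabrg1 had 34 counts and Gabrg3 had 18, and both were under the filter.

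Gabrd had 917 counts, with 178.5, 144.7, 129.4 and 151.9 CPM at 6m and 143.3, 134.1, 138.2 and 104.3 CPM at 24m. The ages overlapped, and the log2FC was -0.24 (SE 0.135, edgeR adjusted p = 0.225). The remaining genes of the GABA-A family are known mostly from outside the forebrain or the brain. Gabrr2, a rho subunit best known from the retina, had 21 counts, Gabre had 6, Gabrq had 4 and Gabrr1 had 2, while Gabrp and Gabrr3 had 0 counts in all 8 libraries, each of which allows up to 3.

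In all, the 19 receptor genes under the filter held 299 counts, 158 at 6m and 141 at 24m. None of the 42 genes had another annotated gene with a transcript at least 95% identical over at least 50% of its canonical transcript. Among the GABA-A genes, pairs that share exon bases on opposite strands included Gabra4 and Gabrb1 (101 bases) and Gabrb1 and Commd8 (396 bases), whose values are uncertain to that extent.

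The GABA-A genes were also read by their place in the genome (GRCm39). The cluster of Gabrg1, Gabra2, Gabra4 and Gabrb1 at chr5:70906506-72319431 summed to 26.8 ± 4.73 CPM at 6m and 26.9 ± 7.02 CPM at 24m. Within it, the log2FC was above 0 for Gabra4 and below 0 for Gabrb1. The cluster of Gabre, Gabra3 and Gabrq at chrX:71299605-71886208 summed to 8.80 ± 4.09 and 17.4 ± 5.99 CPM, with 81 of its 91 counts on Gabra3. The pair of Gabrr2 and Gabrr1 at chr4:33062937-33163588 summed to 2.91 ± 1.78 and 4.73 ± 3.29 CPM. The ages overlapped in each of these clusters.

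Receptors work with partners, and 92 such genes were listed by function, of which 73 passed the filter. Of these 23 rose and 1 fell, beside the 10.3% and 4.17% of all tested genes, and their median log2FC was 0.36, beside 0.03 for the receptor genes and -0.003 for all tested genes. No set test was run on these lists, which were chosen with results of these data known. The same 10.3% and 4.17% of all tested genes stand beside the counts of each list below.

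Auxiliary subunits that travel with AMPA and kainate receptors did not change by both thresholds. Of 12 tested AMPA receptor auxiliary genes 0 rose and 0 fell, with a median log2FC of 0.15. Cnih2, a cornichon that slows AMPA receptor kinetics, and Cacng7, a TARP subunit, passed the adjusted p alone, with log2FC of 0.32 (SE 0.0968) and 0.57 (SE 0.193) and edgeR adjusted p of 0.0204 and 0.0348. Cacng2, which encodes stargazin, was lower in all aged libraries, between 7.62 and 11.5 CPM against 14.8 to 20.1 CPM, with a log2FC of -0.77 (SE 0.310) that did not pass (edgeR adjusted p = 0.0748). Neto1, for kainate receptors, had a log2FC of 0.19, and the delta receptor gene Grid1 had one of 0.36 (SE 0.233), neither of which passed.

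Among scaffolds and trafficking proteins of glutamate receptors, several genes rose. Of 20 tested genes 8 rose and 0 fell, with a median log2FC of 0.64, and their sum (all 24 listed genes) went from 1196 ± 49.6 CPM at 6m to 1739 ± 148 CPM at 24m without overlap. Nptxr, the receptor of neuronal pentraxins that cluster AMPA receptors, lay between 18.5 and 21.7 CPM at 6m and between 66.0 and 140.8 CPM at 24m, with a log2FC of 2.20 (SE 0.237, edgeR adjusted p = 7.95e-07). Nptxr shares 890 exon bases on the same strand with Npcd, which had a log2FC of 1.52 (SE 0.213), so reads of these genes cannot be told apart over that stretch. The changed partner genes Nptn, Homer3, Glul and Zdhhc3 share exon bases with a counted gene on the opposite strand. Nsf, which encodes an ATPase that binds the GluA2 tail and serves membrane trafficking, had a log2FC of 0.78 (SE 0.122). Dlgap3, a partner of PSD-95, had one of 0.74 (SE 0.135), and Nptn, which encodes neuroplastin, 0.59 (SE 0.124). Dlg4, which encodes PSD-95 itself, had a log2FC of 0.25 (SE 0.144) and did not pass.

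Clustering and trafficking factors of GABA-A receptors rose in 4 of 12 tested genes and fell in 0. Nlgn2, the neuroligin of inhibitory synapses, lay between 7.23 and 23.9 CPM at 6m and between 37.6 and 64.0 CPM at 24m, with a log2FC of 1.57 (SE 0.248, edgeR adjusted p = 6.98e-05). Ubqln1, Trak1 and Zdhhc3 had log2FC of 0.74, 0.70 and 0.63. Gphn, which encodes gephyrin, the main scaffold of inhibitory synapses, had a log2FC of 0.08 (SE 0.295). Of the GABA-B receptor, the metabotropic receptor for GABA, Gabbr2 rose with a log2FC of 1.55 (SE 0.323, edgeR adjusted p = 0.00138), while Gabbr1 had a log2FC of 0.08 (SE 0.0903).

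Genes that make, release or remove the transmitters also rose in part. For GABA these were 4 of 7 tested genes, among them the plasma membrane transporter Slc6a11, with a log2FC of 1.28 (SE 0.265), Abat, which breaks GABA down, with 1.61 (SE 0.305), and Gad1, which makes it, with 0.75 (SE 0.178). For glutamate they were 5 of 13, and 1 of 13 fell. Slc1a3, an astrocytic glutamate transporter, had a log2FC of 1.65 (SE 0.214), Glul, which turns glutamate into glutamine, 0.65 (SE 0.107), Slc17a7, which loads vesicles, 0.58 (SE 0.107), and Got2, a mitochondrial transaminase, 0.64 (SE 0.133). The transporter Slc1a2 fell, with a log2FC of -0.59 (SE 0.168, edgeR adjusted p = 0.0131), close to the minimum, and was not called in 9 of 18 alternatives, with log2FC from -0.66 to -0.49. These include both DESeq2 fits, with adjusted p of 0.0584 and 0.0715, and the fits without young adult replicate 4 or aged replicate 3 or 4. Of 3 tested genes of glycine signalling 1 rose, Glrb, at 0.66 (SE 0.235).

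**Figure D5:**
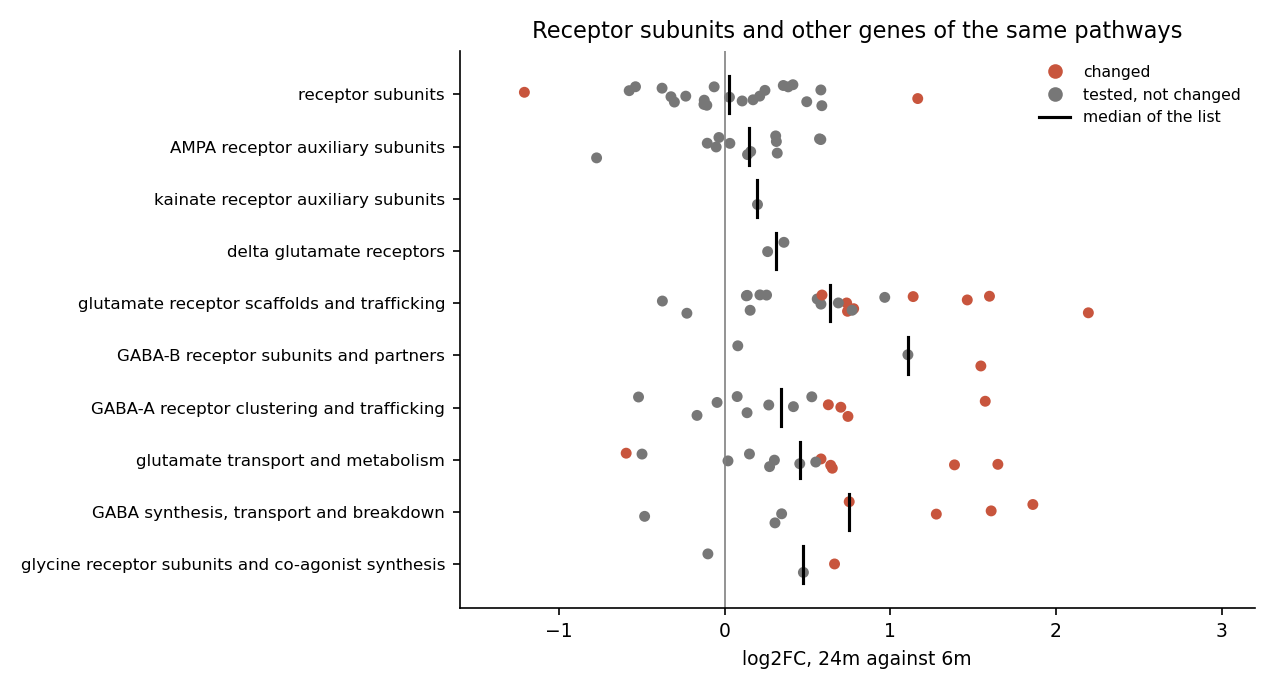
log2FC (horizontal axis, 24m against 6m) of every tested gene in the receptor set and in 9 lists of partner genes, with genes changed by both thresholds in red and the median of each list as a line. The median of the receptor genes is 0.03, and that of the scaffold list is 0.64.

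Markers of the cells that carry the receptors and of other cells were read in the same libraries. The 10 neuron markers summed to 6273 to 6508 CPM at 6m and 6018 to 6464 CPM at 24m, with overlap, and 1 of 10, Snap25, rose. Stmn3 and Uchl1 were the largest parts of this sum, at means of 1981 and 1813 CPM at 6m. Short of the minimum log2FC, markers passed the adjusted p in both directions. Tubb3 and Stmn3 were lower (log2FC -0.30 and -0.28), and Rbfox3, Eno2 and Nefl were among those higher (0.52, 0.38 and 0.38). The sums of the cortical and hippocampal glutamatergic, interneuron, striatal, cerebellar granule, Purkinje, thalamic, astrocyte, endothelial, choroid plexus and blood lists overlapped between the ages. Some of these sums rest on 1 abundant gene. Of the mean astrocyte sum, 2824 CPM at 6m and 2843 CPM at 24m, Aldoc held 2341 and 2148 CPM. Of the mean choroid plexus sum, 3470 and 3226 CPM, Ttr held 3436 and 3201 CPM. Of the mean granule cell sum, 417.7 and 492 CPM, Calb2 held 268.9 and 228.4 CPM. Calb2 had a log2FC of -0.25, whereas the median of the 9 granule cell markers was 0.70. Calb2 is also in the thalamic list, with mean sums of 379.4 and 321.2 CPM. Within these lists, 2 of 7 tested glutamatergic, 1 of 8 interneuron, 1 of 8 striatal, 2 of 7 Purkinje and 3 of 9 granule cell markers rose. Of the tested astrocyte markers 3 of 7 rose and 1 fell, and 5 of 5 blood markers fell. Of all tested genes 10.3% rose and 4.17% fell, so 1 of 8 or 1 of 10 is near the share of all genes. The oligodendrocyte markers summed to 2003 to 2574 CPM at 6m and 2777 to 3638 CPM at 24m, and 2 of 7 rose. The progenitor markers summed to 98.3 to 135.6 and 138.7 to 197.1 CPM, with 0 of 3 tested changed, and the microglia markers to 550.2 to 616.6 and 670.4 to 861.2 CPM, with 1 of 5 tested higher. No listed marker was at 0 in all libraries, and the part of these lists in the values of the receptor genes was not tested.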

How the data were processed

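RNA of whole hemispheres from 8 male mice, 4 at 6m and 4 at 24m, was sequenced with ONT direct RNA libraries on a MinION. The authors mapped the reads to GRCm39 with minimap2 (2.24 in the submitters' processing notes), counted them per gene with featureCounts and deposited raw counts. Strand and overlap settings are not given in the sources used here. The labels name a cDNA library kit, whereas the methods describe direct RNA, and the methods were followed.

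Of 22430 identifiers, 22281 matched GENCODE vM39. Counts of genes with a mean over 5 were tested in R 4.3.3 with edgeR 4.0.16 (quasi-likelihood, TMM, age as only term), with limma 3.58.1 and DESeq2 1.42.0 for alternatives and BLAST+ 2.17.0 for near-identical copies. SE is the absolute log2FC over the square root of F. CPM and sums are on TMM-scaled library sizes, ratios of genes within a library are of raw counts, and sums and ratios carry no test. P-values measure the spread between mice.

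The receptor genes, the partner and marker lists and the tests were chosen with earlier results of these data known. The text names the tested receptor genes, accounts for the others by count, and names at most 4 changed genes of a partner list by smallest p. Further partner genes (Cnih2, Cacng7, Cacng2, Neto1, Grid1, Dlg4, Homer3, Gphn, Gabbr1, Slc1a2), the overlapping genes Tmem259 and Npcd and the markers named were added beside a result. Some genes that these rules select enter the sums and counts but are not reported here. The test was checked on simulated counts with known changes. Alternatives were other scalings, filters and tools, a replicate block and each library left out. Replicate numbers did not pair the libraries.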

Additional observations from a re-analysis of the deposited data

Results flagged for a closer look

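Among groups of 4 libraries, a value was singled out where its gap to the nearest other library passed Dixon's critical value for a group of that size. Of 78 groups tested 4 passed, where chance alone gives about 3.9. Grik5 stood at 220.1 CPM in aged replicate 3, with the other aged libraries between 187.9 and 192.3 CPM. The kainate sum, of which Grik5 is the main member, was 249.5 CPM in the same library, with the others between 221.7 and 223.5 CPM. The GABA-A beta sum was 23.7 CPM in young adult replicate 3, with the others between 16.3 and 17.2 CPM. The total of young adult replicate 2 was 573152 counts, with the other young adult libraries between 818963 and 843706 counts.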

How the results depend on the processing

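Of the receptor genes, 1 rose and 1 fell in the reported test. The number that rose was 0 with DESeq2 on raw counts, with DESeq2 on quantile-normalized counts and with filterByExpr, 2 with the adjusted p alone, and 0 to 2 with a library left out. It was 0 without young adult replicate 1 or without aged replicate 2 or 4, and 2, with Gabra5 added, without aged replicate 1. Without young adult replicate 4 the gene that rose was Grm4. The number that fell was 2 with the adjusted p alone and with DESeq2 on quantile-normalized counts (Grin3b added), 2 with a total count over 5 and with no filter (Grin2b added, which is at or under 3 counts in every library), and 1 to 2 with a library left out (Grin3b added without young adult replicate 3 or 4 or aged replicate 1 or 4, Grm2 without aged replicate 2). Gria2 was among them in each.

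Correlations of same-numbered libraries were 0.073, 0.004, 0.002 and -0.141, so the numbers do not pair the libraries, and with a replicate block 1 rose and 2 fell, Grm2 being added at -0.61. Of the partner genes 1 fell, Slc1a2, and 0 with a total count over 5 or with library sizes alone.

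The sign of log2FC turned for genes near 0, and the cause was not tested. With a library left out, Gria3 was -0.29 to 0.13, Grik1 -0.43 to 0.36, Grm3 -0.36 to 0.091 and Grin2c -0.19 to 0.085, and Grin2c was 0.041 with library sizes alone. Library sizes alone moved the median of all genes to 0.10 and the log2 ratio of sums to 0.17 (kainate), 0.14 (ionotropic glutamate), 0.11 (GABA-A) and 0.11 (all). Without the member with the most counts the log2 ratio was -0.60 for AMPA, -0.33 for NMDA, -0.20 for kainate, -0.50 for metabotropic, 0.44 for the other GABA-A genes, -0.14 for ionotropic glutamate, 0.20 for GABA-A and -0.11 for all. Without Grin3b, an alternative chosen after the data were seen, the NMDA ratio was 0.28.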
